A study of Rattus norvegicus with 4 samples.

Results

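Kinetochore and spindle checkpoint genes, a list of 45 genes named by symbol, were followed in cultured rat neonatal cardiomyocytes, the muscle cells of the newborn heart, taken at postnatal day 3. One group of 2 libraries came from cells given an adenovirus vector labelled mock, and the other group of 2 libraries came from cells given an adenovirus vector encoding Pdk3 (pyruvate dehydrogenase kinase 3, which phosphorylates and inactivates the pyruvate dehydrogenase complex). No strain, dose or time after transfer was given in the sources used here, and the cells of both groups carried a vector. Of the 45 genes, 43 had a row by symbol in the deposited table of 16290 genes, and Spag5 had 2 rows, which gave 44 rows. The expression of Cenpp and Cenpq was not analysed here. The values, called normalised read counts below, are the authors' whole-number counts per gene after scaling between libraries. A gene entered the test where 2 or more libraries reached a value of 10, and all 44 rows did.

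The kinetochore is the protein assembly on each centromere that attaches a chromosome to spindle microtubules during cell division. It is built on nucleosomes that carry the histone variant CENP-A, through an inner network of centromere proteins and an outer layer that grips microtubules. The spindle checkpoint holds back anaphase until kinetochores are attached, and the chromosomal passenger complex releases wrong attachments. Most of these genes are transcribed mainly late in the cell cycle, and cardiomyocytes leave the cell cycle in the weeks after birth. In bulk libraries, a larger share of dividing cells and more RNA per cell cannot be told apart.

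Pdk3 itself stood at 396 and 411 in mock and at 1218 and 1177 with Pdk3, so each library's label matched its level. By scaling factors estimated from the rounded values, the deposited values correspond to between 4140000 and 4707000 reads in genes per library. This read scale is approximate. In each Pdk3 library, 67 genes stood at whole numbers that the estimated factor cannot give, of 9496 genes examined in Pdk3 1 and 9575 in Pdk3 2. The chi-square values and the counting error below rest on this estimate. Libraries of 1 group differed by less than counting error: the chi-square per gene was 0.597 between the mock libraries and 0.598 between the Pdk3 libraries, against 3.41 between Mock 1 and Pdk3 1. Separate cultures are not named in the labels, and the p-values therefore speak for the spread of these 4 libraries alone, which may be a technical one. For this reason each limma call was also required to pass counting error in a second version of the test. Over all tested genes, 11.7% rose (8.39% with counting error required) and 11.3% fell, and the marker counts that follow stand beside these shares. Of 9 cardiomyocyte markers, 4 rose (3 with counting error required) and 1 fell, with summed values of 19230 to 19433 in mock and 19693 to 19965 with Pdk3. Of 8 macrophage markers, 5 fell (62.5%), with summed values of 1289 to 1372 in mock and 1049 to 1088 with Pdk3. Fibroblast markers summed to between 5922 and 6000 in mock and between 5781 and 5919 with Pdk3, and 1 of 9 fell (11.1%), near the share of all tested genes. Endothelial markers summed to between 1077 and 1128 in mock and between 1003 and 1038 with Pdk3, and 2 of 7 fell. Of 6 smooth muscle markers 3 rose, with sums of 3461 to 3527 in mock and 3900 to 3903 with Pdk3, and of 6 mesothelial markers 5 were tested and 2 fell, with sums over the 6 of 293 in both mock libraries and 214 to 241 with Pdk3. None of these markers was at 0 in any library, and their part in the results below was not tested.

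Most kinetochore and checkpoint genes were higher in the cells given Pdk3. Of the 44 rows, 37 rose (84.1%) and 0 fell (limma, two-sided, Benjamini-Hochberg over all 12838 genes tested, threshold 0.05; 0 were lower at an unadjusted p under 0.05 as well), where 11.7% of all tested genes rose and 11.3% fell. The median log2 fold change over the 44 rows was 0.76, a 1.70-fold difference, against -0.01 over all tested genes. Summed over the rows, the normalised read counts came to 6750 and 6769 in mock and to 10131 and 10611 with Pdk3. In 40 rows both Pdk3 libraries lay above both mock libraries, which held for 29.9% of all tested genes. When a call also had to pass counting error, 36 rows rose against 8.39% of all tested genes, and the 1 lost was Birc5. A rise with a log2 fold change of at least 1 was found for 8 members, against 1.22% of all tested genes: Mis18a, Cenpu, Nsl1, Cenpk, Dsn1, Cenpi, Ska3 and Cenph. All 8 are inner or outer kinetochore or loading factors, and none is a checkpoint kinase or a passenger subunit. With any 1 library left out, which leaves a group with a single library, the limma calls did not hold. The median log2 fold change over the members was then 0.71 to 0.79, against -0.007 to -0.005 over all tested genes.

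**Figure D1:**
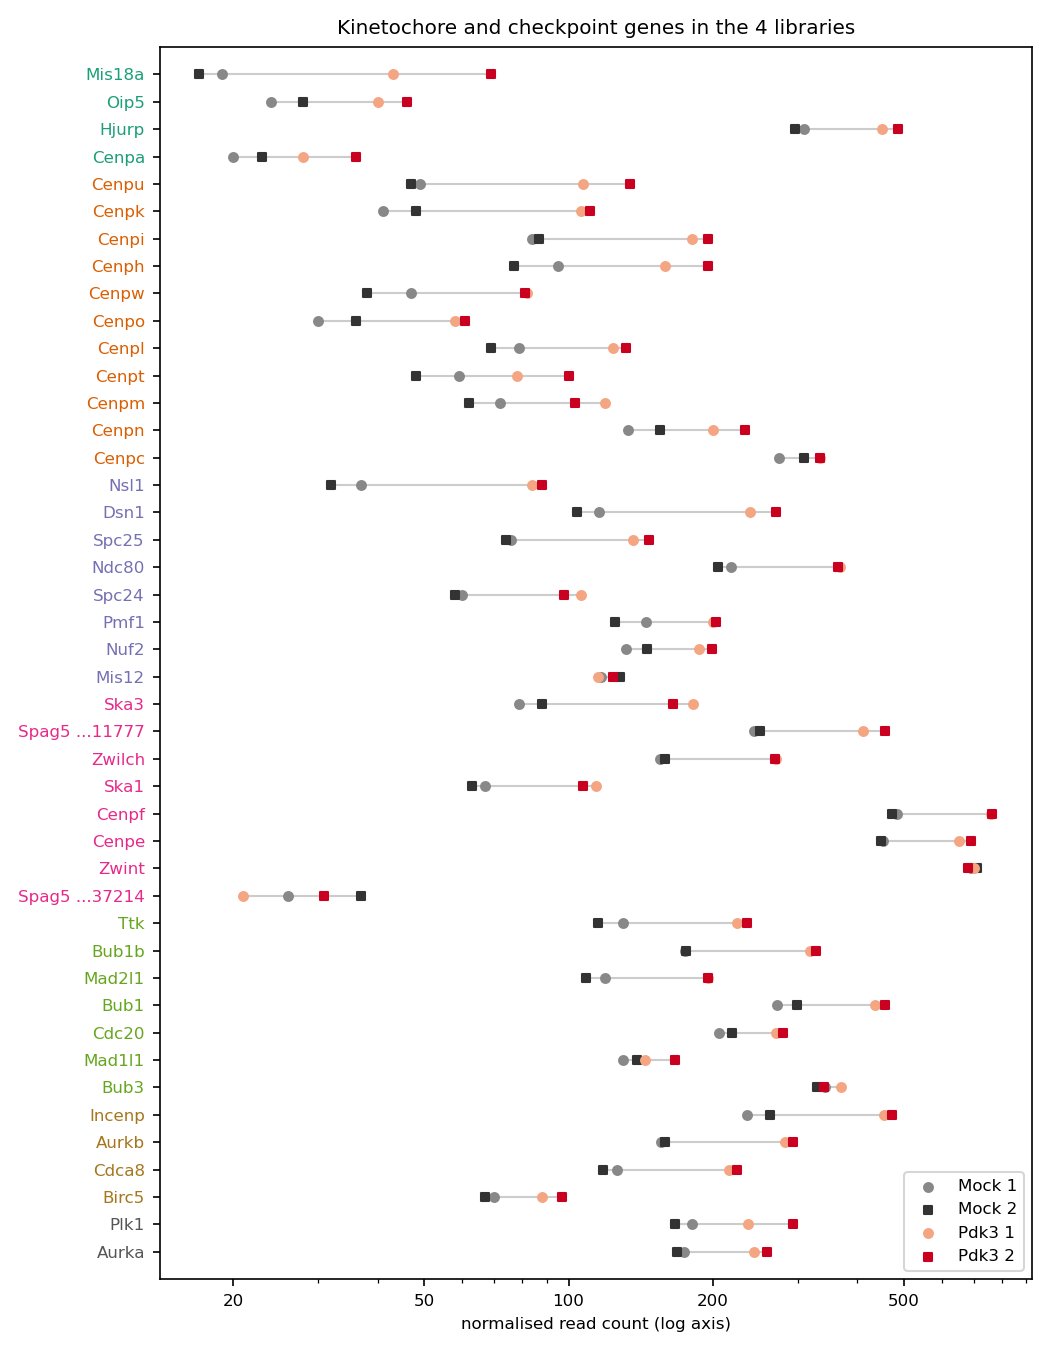
Normalised read count (log axis) of each kinetochore and checkpoint gene in Mock 1, Mock 2, Pdk3 1 and Pdk3 2, grouped by role through the colour of the gene names, with a grey line over each gene's range. The orange and red points (Pdk3) both lie to the right of the grey and black points (mock) for 40 of the 44 rows, and the groups overlap for Mis12, Zwint, Bub3 and the second Spag5 row (the lower of the pair).

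The starts of these genes were read for short motifs, since the members moved together. RefSeq promoter windows (rat build GRCr8, from 250 bases before to 50 bases after the annotated start) were matched by symbol for 40 of the 45 genes, giving 41 windows, as Mis12 has 2. Cenpt, Zwint, Zwilch, Aurkb and Incenp had no entry. The letters TTTGAA or TTCGAA, the hexamers of the cell cycle homology region, stood on either strand in 26 of the 41 windows (63.4%), against 19.7% of all 33469 windows and 13.7% of the windows of tested genes. In 16 of the 26, a hexamer began within 50 bases before the start or after it. The letters CCAAT, the NF-Y box, stood on either strand in 48.8% of the members' windows against 37.5% of all windows. Hexamer and CCAAT together stood in 34.1% of the members' windows against 7.95% of all windows. The E2F-like letters TTTCGCG, or their variants with a changed middle, namely TTTGGCG and further TTTCCCG as well as the form TTTGCCG, stood on either strand in 17.1% of the members' windows against 6.8% of all windows and 10.7% of those of tested genes. A match is only a run of letters, and binding was not measured.

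Of the printed stretches, 4 hold both the hexamer and CCAAT. Cdc20 and Cdca8 passed the test as higher, while Cenpa and Bub3 did not pass. Their log2 fold changes were 0.37, 0.85, 0.55 and 0.08 in that order. Cenpa, which rests on low values, thus changed more than Cdc20 although it did not pass. The stretches of Dsn1 and Cenpu are printed because these genes were among the largest rises and none of the motif letters searched was found in their windows. Each stretch is the 250 bases before the start, 5′ to 3′ on the gene's strand, with matches to the motifs on either strand in capitals (ATTGG is CCAAT read on the other strand, and CGCGAAA is TTTCGCG). In Cdca8 the hexamer and 1 ATTGG share a base. The positions in GRCr8 are chr5:137255800-137256049, minus strand for Cdc20, chr5:142483200-142483449, minus strand for Cdca8, chr6:31431553-31431802, minus strand for Cenpa, chr1:195760282-195760531, plus strand for Bub3, chr3:166085891-166086140, minus strand for Dsn1 and chr16:52471663-52471912, minus strand for Cenpu.
Cdc20: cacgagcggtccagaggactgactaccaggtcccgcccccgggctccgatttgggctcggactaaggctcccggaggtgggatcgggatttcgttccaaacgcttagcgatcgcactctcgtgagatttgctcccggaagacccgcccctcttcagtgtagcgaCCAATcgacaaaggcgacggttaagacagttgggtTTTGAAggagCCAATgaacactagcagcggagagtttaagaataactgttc
Cdca8: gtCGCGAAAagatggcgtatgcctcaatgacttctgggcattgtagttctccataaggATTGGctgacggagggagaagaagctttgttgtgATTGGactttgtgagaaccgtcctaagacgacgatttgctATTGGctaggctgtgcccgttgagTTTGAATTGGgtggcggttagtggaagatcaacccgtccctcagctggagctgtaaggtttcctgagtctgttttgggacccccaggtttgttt
Cenpa: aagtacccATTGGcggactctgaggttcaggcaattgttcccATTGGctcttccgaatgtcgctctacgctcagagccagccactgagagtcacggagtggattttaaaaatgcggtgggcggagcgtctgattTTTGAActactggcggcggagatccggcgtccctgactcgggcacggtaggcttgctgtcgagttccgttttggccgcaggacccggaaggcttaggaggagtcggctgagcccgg
Bub3: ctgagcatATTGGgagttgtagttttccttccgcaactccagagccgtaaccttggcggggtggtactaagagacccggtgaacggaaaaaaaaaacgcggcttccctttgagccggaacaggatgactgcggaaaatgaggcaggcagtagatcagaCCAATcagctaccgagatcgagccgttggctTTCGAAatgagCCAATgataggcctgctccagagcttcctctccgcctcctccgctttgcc
Dsn1: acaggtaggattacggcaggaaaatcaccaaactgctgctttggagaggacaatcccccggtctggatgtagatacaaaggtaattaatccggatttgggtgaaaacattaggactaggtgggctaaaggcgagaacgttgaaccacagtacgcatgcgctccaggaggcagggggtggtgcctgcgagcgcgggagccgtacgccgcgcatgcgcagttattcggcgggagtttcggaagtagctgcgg
Cenpu: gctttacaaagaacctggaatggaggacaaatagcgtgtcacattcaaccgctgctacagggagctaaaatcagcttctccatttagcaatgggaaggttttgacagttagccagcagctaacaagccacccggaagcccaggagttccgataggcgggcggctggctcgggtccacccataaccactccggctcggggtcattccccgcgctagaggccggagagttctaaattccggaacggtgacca

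Among the members that rose, the hexamer was also counted by size of the change. It stood in 2 of the 8 windows (25%, Cenpi and Mis18a) of members with a log2 fold change of at least 1. Of those with a smaller rise, it stood in 19 of the 25 windows (76%). The difference was not particular to the hexamer, as CCAAT stood in 1 of the 8 windows and 15 of the 25. The E2F-like letters stood in 3 of the 8 and 4 of the 25, and 5 of the 8 and 2 of the 25 held none of these motifs. The median log2 fold change was 0.77 over the 21 risen genes with the hexamer and 0.91 over the 12 risen genes without it. Mis12, Bub3, Cenpc, Mad1l1 and Cenpa, which did not pass the test, all hold the hexamer in a window. With them, the median over the 26 genes with the hexamer was 0.71. In that order, their hexamers began at -200, -61, -176, -182 and -116 from the start. The 16 windows counted above with a hexamer near or after the start all belong to members that rose. All 12 measured members without the hexamer in a matched window rose too. Cenpa, which did not pass, had a larger log2 fold change (0.55) than Birc5 (0.43) and Nuf2 (0.47), which are among the 16. Among risen members, Cdc20 (-51), Spc25 (-57), Hjurp (-92), Cdca8 (-94) and Mis18a (-220) had the hexamer farther out. Cenpp and Cenpq have windows but no value here. The splits by size of the change and by hexamer position were chosen after the values were seen, and no difference was tested.

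**Figure D2:**
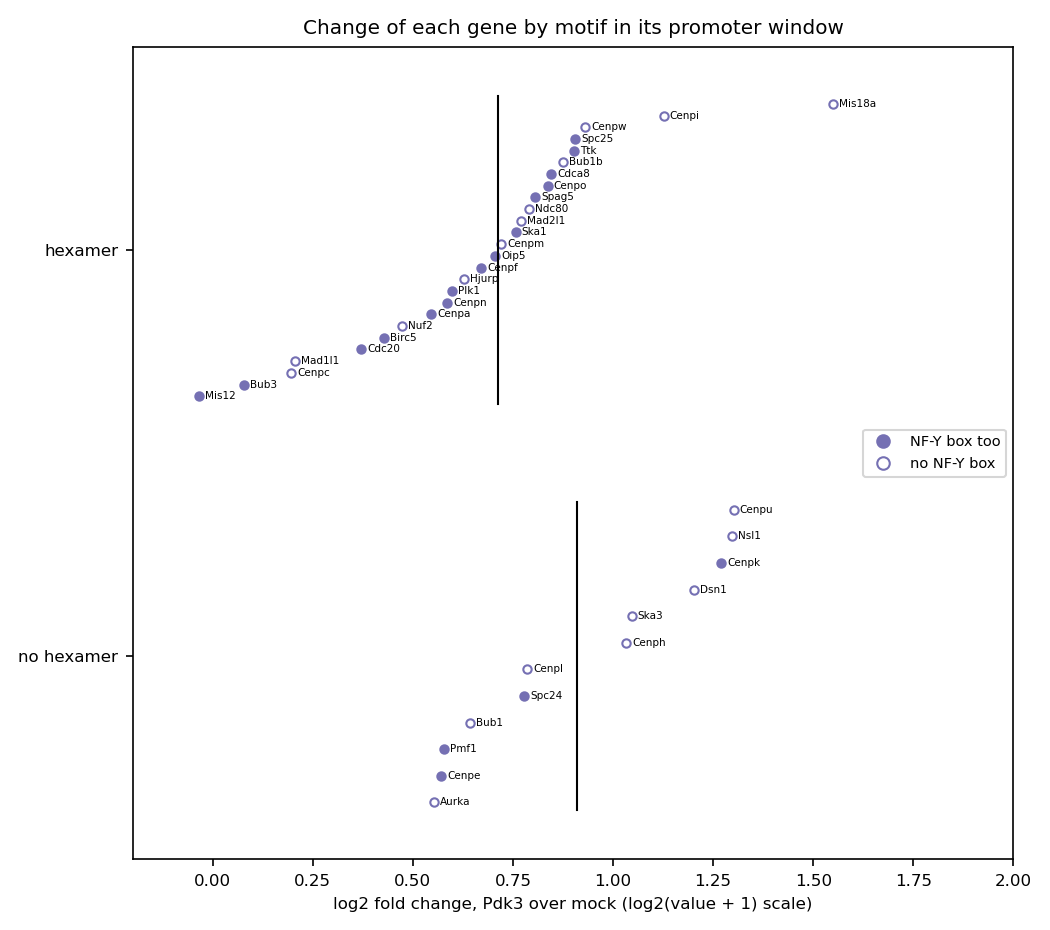
Log2 fold change (Pdk3 over mock, log2(value + 1) scale) of each matched member, risen or not, with and without the hexamer in its promoter window, as filled points where the NF-Y box is also present and open points where it is not, with a black line at the median (0.71 with the hexamer, 0.91 without). Of the genes without the hexamer, 6 lie above 1, against 2 of those with it, and the vertical spread within a row only separates the labels, and the NF-Y box of Mis12 lies in its other window.

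The genes that place CENP-A at centromeres held the largest rise among the members. Mis18a, a subunit of the complex that primes centromeres for new CENP-A (rn6 chr11:30879887-30893310), had 19 and 17 normalised reads in mock and 43 and 69 with Pdk3. Both Pdk3 libraries lay above both mock libraries, although they differed from each other more than the mock pair did. The difference was 3.11-fold (log2 fold change 1.55 ± 0.25 SE, adjusted p = 0.00424). Hjurp, the chaperone that deposits CENP-A, had 310 and 296 in mock and 451 and 487 with Pdk3, which is 1.55-fold (adjusted p = 2.06e-04). Oip5, the partner of Mis18a in the priming complex, had 24 and 28 against 40 and 46 (1.65-fold, adjusted p = 0.0296). Cenpa, the histone variant itself, had 20 and 23 against 28 and 36. The Cenpa groups did not overlap, yet the difference did not pass the test (log2 fold change 0.55, 95% interval 0.05 to 1.04, adjusted p = 0.109). Cenpa, Mis18a and Oip5 rest on low values, and the standard errors of their log2 fold changes were 0.21, 0.25 and 0.18.

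In the inner network, the constitutive set of proteins that sits on CENP-A chromatin, 10 of the 11 genes measured rose, with a median log2 fold change of 0.84. Cenpu, a subunit of the CENP-O group, had 49 and 47 in mock and 107 and 134 with Pdk3 (2.51-fold, log2 fold change 1.30 ± 0.14 SE, adjusted p = 6.28e-04). Cenpk had 41 and 48 against 106 and 111 (2.44-fold, adjusted p = 5.24e-04), and Cenpi had 84 and 87 against 181 and 195 (2.20-fold, adjusted p = 1.34e-04). In these 3 genes the lower Pdk3 value was more than 2 times the higher mock value. Cenph, which forms a group with Cenpi, Cenpk and Cenpm, had 95 and 77 against 159 and 195 (2.06-fold). The fourth subunit, Cenpm, had 72 and 62 against 119 and 103 (1.66-fold, adjusted p = 0.00622). The median over the 4 was 1.08 on the log2 scale, and 0.68 over Cenpl and Cenpn, the pair that contacts the CENP-A nucleosome. Cenpt and Cenpw, histone-fold proteins that form a second bridge to the outer layer, rose 1.66-fold and 1.92-fold, with 59 and 48 against 78 and 100 for Cenpt and 47 and 38 against 82 and 81 for Cenpw.

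Cenpc was the exception in the network. This protein binds CENP-A nucleosomes and recruits the Mis12 complex, and it had 274 and 310 in mock and 334 in both Pdk3 libraries. The log2 fold change of 0.20 (95% interval 0.05 to 0.34) did not pass the test (adjusted p = 0.0631), and it passed with TMM scaling (adjusted p = 0.0317) and with a minimum value of 50 (adjusted p = 0.0232). Cenpo had 30 and 36 against 58 and 61 (1.80-fold, adjusted p = 0.00924). Cenpo, Cenpk and Cenpn overlap genes on the opposite strand (Adcy3 over 511 bases, Ppwd1 over 329 and Cmc2 over 14483), and because the strand setting of the counting is not given in the sources used here, reads of such partners cannot be told apart. Ppwd1 rose too, from 192 and 220 to 256 and 247, while Adcy3 (40 and 44 against 53 and 69) and Cmc2 (63 and 79 against 83 and 95) did not pass.

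**Figure D3:**
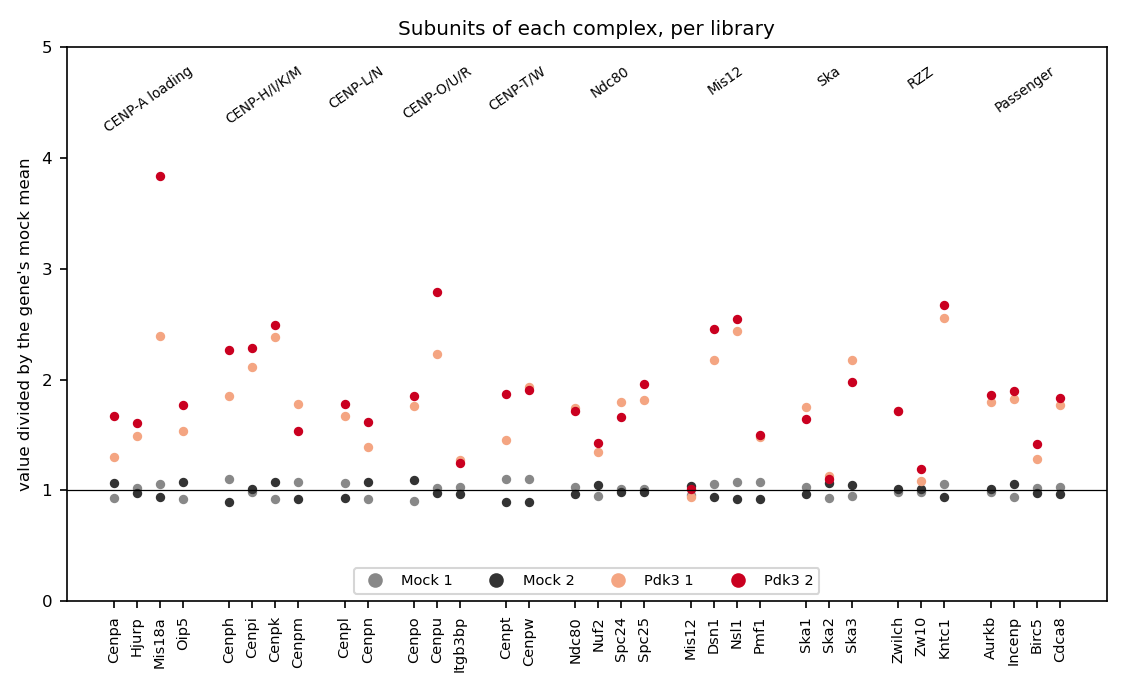
Value of each subunit divided by that gene's mock mean in the 4 libraries (grey and black, mock; orange and red, Pdk3), by complex, with a line at 1. Subunits of 1 complex lie at different heights, with Mis12, Ska2 and Zw10 near 1 (group folds 0.976, 1.12 and 1.14) beside Dsn1, Ska3 and Kntc1 (2.31, 2.08 and 2.61).

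The outer kinetochore core consists of the Mis12 complex, a bridge from the inner network, and the Ndc80 complex, which holds the microtubule. All 4 subunits of the Ndc80 complex rose. Ndc80 had 218 and 205 in mock and 368 and 364 with Pdk3 (1.73-fold, log2 fold change 0.79 ± 0.05 SE, adjusted p = 8.1e-05). Spc25 had 76 and 74 against 136 and 147 (1.89-fold), and Spc24 had 60 and 58 against 106 and 98 (1.73-fold). Nuf2, the partner of Ndc80 at the microtubule end, rose least of the 4, from 132 and 146 to 187 and 199 (1.39-fold, adjusted p = 0.00557). The 4 subunits thus spanned log2 fold changes of 0.47 to 0.91.

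In the Mis12 complex, 3 of 4 subunits rose. Dsn1, a subunit that Aurora B phosphorylates, had 116 and 104 in mock and 239 and 270 with Pdk3 (2.31-fold, log2 fold change 1.20 ± 0.09 SE, adjusted p = 1.31e-04). Nsl1 had 37 and 32 against 84 and 88 (2.49-fold, adjusted p = 7.27e-04), and Pmf1 had 145 and 125 against 200 and 203 (1.49-fold, adjusted p = 0.00329). All 3 had Pdk3 values above both mock values. Mis12 itself had 117 and 128 in mock and 115 and 124 with Pdk3, with overlapping groups and a log2 fold change of -0.04 (95% interval -0.25 to 0.18, adjusted p = 0.818). The interval does not reach the log2 fold change of any of its 3 partners. The ratio of Dsn1 to Mis12 within a library was 0.992 and 0.813 in mock and 2.08 and 2.18 with Pdk3, a pair chosen after the values were seen.

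Among the other outer proteins, 6 of 8 rows rose. Cenpf, a large coiled-coil protein of the outer corona, had 484 and 473 in mock and 760 and 764 with Pdk3 (1.59-fold), and its adjusted p of 1.99e-05 was the lowest of all members. Cenpe, the kinesin that moves chromosomes to the plate, had 453 and 448 against 651 and 689 (1.49-fold, adjusted p = 8.1e-05). Within each pair these values lay close together, and the groups were far apart. The Ska complex supports the grip on microtubules: Ska3 had 79 and 88 against 182 and 165 (2.08-fold, adjusted p = 3.61e-04) and Ska1 had 67 and 63 against 114 and 107 (1.70-fold). Ska3 overlaps Mrpl57 on the opposite strand over 1073 bases, and Mrpl57 had 142 in both mock libraries and 129 and 132 with Pdk3.

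Zwilch, a subunit of the Rod-Zw10-Zwilch complex that brings dynein and checkpoint proteins to kinetochores, had 155 and 159 in mock and 270 and 269 with Pdk3 (1.72-fold, adjusted p = 1.39e-04). Zwint, the protein that links this complex to the outer kinetochore, had 689 and 709 against 701 and 679. Its groups overlapped, and the log2 fold change was -0.02 (95% interval -0.09 to 0.06, adjusted p = 0.715). With the ribosomal protein genes set level between groups, Zwint passed as lower (log2 fold change -0.10, adjusted p = 0.0435). Spag5 (astrin, a spindle and kinetochore protein; ENSRNOG00000011777) had 243 and 251 against 410 and 456 (1.75-fold, adjusted p = 1.27e-04). A second row with the same symbol, ENSRNOG00000037214, starts upstream on chromosome 10 at 65552897 and ends at 65556749 in rn6. The file pairs this row also with the name Sgk494, and it had 26 and 37 against 21 and 31, with overlapping groups (adjusted p = 0.496).

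Of 7 spindle checkpoint genes, 5 rose, with a median log2 fold change of 0.64. Bub1b (BubR1, part of the inhibitor that holds the anaphase-promoting complex) had 175 and 176 in mock and 318 and 328 with Pdk3 (1.84-fold, log2 fold change 0.88 ± 0.05 SE, adjusted p = 5.6e-05). Ttk (Mps1, the kinase that starts the signal) had 130 and 115 against 224 and 235 (1.87-fold, adjusted p = 3.26e-04). Bub1, the kinase that docks the others at kinetochores, had 272 and 299 against 435 and 457 (1.56-fold). For these 3, the Pdk3 libraries stood well above both mock libraries. Mad2l1 (Mad2, the protein whose folded state carries the signal) had 119 and 109 against 195 in both Pdk3 libraries (1.71-fold, adjusted p = 5.52e-04). Cdc20, the activator of the anaphase-promoting complex that Mad2 captures, had 206 and 219 against 270 and 280 (1.29-fold, adjusted p = 0.00406), the smallest rise of any member that passed.

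The docking partners of these proteins gave other values. Bub3, which carries Bub1 and Bub1b to kinetochores, had 343 and 329 in mock and 369 and 341 with Pdk3, with overlapping groups (log2 fold change 0.08, 95% interval -0.05 to 0.20, adjusted p = 0.333). Mad1l1 (Mad1, the kinetochore anchor of Mad2) had 130 and 139 against 144 and 167, with groups apart and a log2 fold change of 0.20 that did not pass (adjusted p = 0.161). The ratio of Bub1b to Bub3 within a library was 0.510 and 0.535 in mock and 0.862 and 0.962 with Pdk3, a pair also chosen after the values were seen. Bub3 and Cdc20 both hold the hexamer and CCAAT in the stretches printed above.

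All 4 genes of the chromosomal passenger complex rose, with a median log2 fold change of 0.86. Aurkb, its kinase (Aurora B), had 156 and 159 in mock and 283 and 293 with Pdk3 (1.83-fold, log2 fold change 0.87 ± 0.06 SE, adjusted p = 8.1e-05). Incenp, the scaffold that activates Aurora B, had 235 and 263 against 454 and 472 (1.86-fold), and Cdca8 (borealin, which targets the complex to centromeres) had 126 and 118 against 216 and 224 (1.80-fold). These 3 genes differed little from each other in log2 fold change, from 0.85 to 0.89. Birc5 (survivin, which reads a phosphorylated histone at centromeres) had 70 and 67 against 88 and 97 (1.35-fold, adjusted p = 0.0308), and its call was lost when it also had to pass counting error (adjusted p = 0.0578). The kinases Aurka and Plk1, which act at spindle poles and, for Plk1, at kinetochores too, rose 1.47-fold (174 and 168 against 244 and 259) and 1.52-fold (181 and 167 against 237 and 293).

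**Figure D4:**
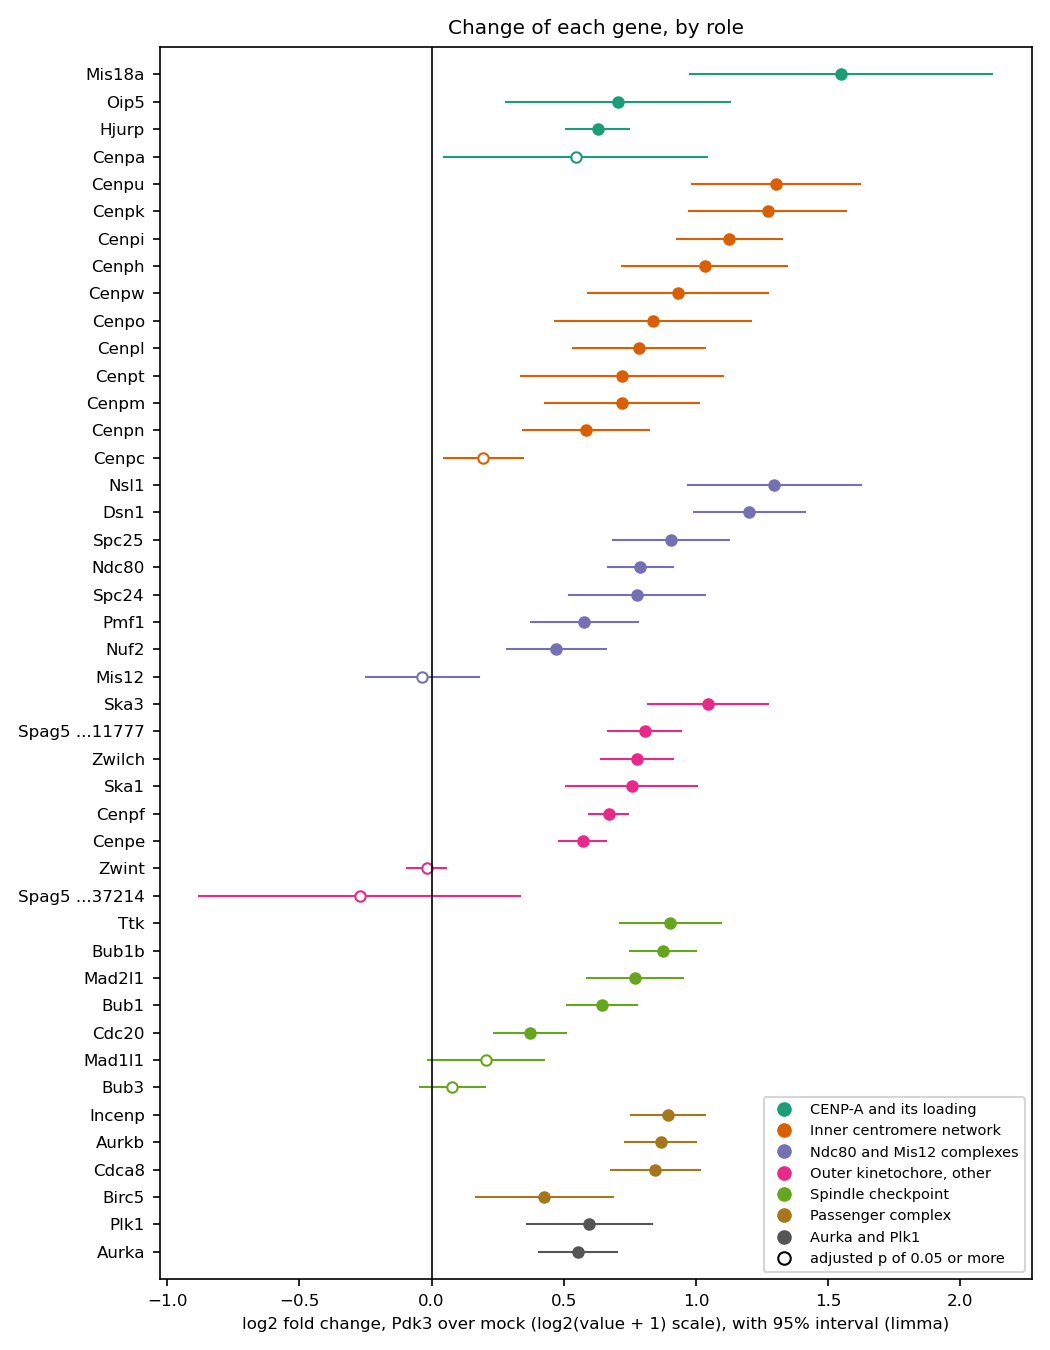
Log2 fold change (Pdk3 over mock, log2(value + 1) scale) of each member with its 95% interval from limma, by role. Mis18a has the highest value at 1.55 and one of the widest intervals, and the intervals of Mis12, Zwint, Bub3, Mad1l1 and the second Spag5 row include 0.

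By role, the medians ran from 0.58 for Aurka and Plk1 to 0.86 for the passenger complex, with 0.64 for the checkpoint, 0.67 for CENP-A loading, 0.71 for the other outer proteins, 0.78 for the outer core and 0.84 for the inner network. The roles were not tested against each other. A widely used set of G2/M marker genes holds 13 of the members, and 12 of these 13 rose, with a median of 0.63 and a range of 0.37 to 0.90. The 31 other rows had a median of 0.78, with 25 risen, and held all 8 members with a log2 fold change of at least 1.

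A further list of kinetochore genes was taken beside the members. Of its 26 genes, 24 were measured, 16 rose (66.7%, 15 genes with counting error required) and 1 fell (4.17%). Over all tested genes, 11.7% rose and 11.3% fell. The median log2 fold change of the 24 was 0.56. Kntc1 (Rod, the large subunit beside Zwilch) had 203 and 180 in mock and 489 and 512 with Pdk3 (2.61-fold, adjusted p = 1.99e-05). Kif18a, a kinesin that dampens chromosome movement, had 59 and 62 against 151 and 170 (2.65-fold), and Kif18b, its relative, had 130 and 127 against 247 and 238 (1.89-fold). Tpx2, the activator of Aurora A, had 343 and 363 against 539 and 529 (1.51-fold). The gene that fell was Clasp1, a microtubule-stabilising protein, with 1396 and 1387 in mock against 1309 and 1297 (a log2 difference of -0.09, adjusted p = 0.0163), and the call was lost when it had to pass counting error (adjusted p = 0.0827). The third subunit beside Zwilch and Kntc1, Zw10, had 268 and 277 against 297 and 326 and did not pass (adjusted p = 0.054), and neither did Ska2, with 88 and 101 against 107 and 104 (adjusted p = 0.316).

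The machinery on which the checkpoint acts was set beside all tested genes, of which 11.7% rose and 11.3% fell. Of 20 genes of the anaphase-promoting complex and its regulators, 4 rose (20%) and 0 fell, with a median log2 fold change of 0.05. The 4 were Fbxo5 (Emi1, an inhibitor of the complex; 65 and 82 against 182 and 167, 2.37-fold), Espl1 (separase; 127 and 105 against 194 and 229, 1.82-fold), Ube2c (its ubiquitin-conjugating enzyme; 78 and 71 against 109 and 112, 1.48-fold) and Anapc1, a subunit, at 1.07-fold. The Anapc1 call was lost when it had to pass counting error (adjusted p = 0.127). Of 13 cohesin genes, which hold sister chromatids together, 6 rose (46.2%, 5 genes with counting error required) and 1 fell (7.69%), with a median of 0.02. Esco2, the S-phase cohesin acetyltransferase, had 23 and 36 against 92 and 77 (2.86-fold, adjusted p = 0.00291), whereas the core subunits Smc3 and Smc1a rose 1.16-fold and 1.11-fold. Mau2, a cohesin loader, fell from 1124 and 1121 to 978 and 950 (adjusted p = 0.00103).

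Factors that are known to act on the promoters of late cell cycle genes were looked up as well. Of 15 such genes, 5 rose (33.3%) and 1 fell (6.67%), against 11.7% and 11.3% of all tested genes. The median log2 fold change of the 15 was 0.30. Mybl2 (B-Myb) had 169 and 138 in mock and 410 and 392 with Pdk3 (2.61-fold, adjusted p = 7.81e-05), and Foxm1 had 217 and 185 against 373 and 405 (1.94-fold). Rbl1 (p107, a pocket protein of the DREAM complex) had 165 and 146 against 301 and 297 (1.92-fold, adjusted p = 1.53e-04). Lin54, the subunit of the DREAM and MuvB complexes that contacts the hexamer, rose 1.54-fold, from 360 and 349 to 534 and 555. Nfya, a subunit of NF-Y, fell (log2 fold change -0.23, adjusted p = 0.0365), and the call was lost when it had to pass counting error (adjusted p = 0.0584). For comparison, all 6 genes of the MCM helicase, which is loaded at replication origins, rose, with a median of 1.13, and 0 of 63 ribosomal protein genes passed in either direction, with a median of 0.08. The difference between the members and the MCM genes was not tested.

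**Figure D5:**
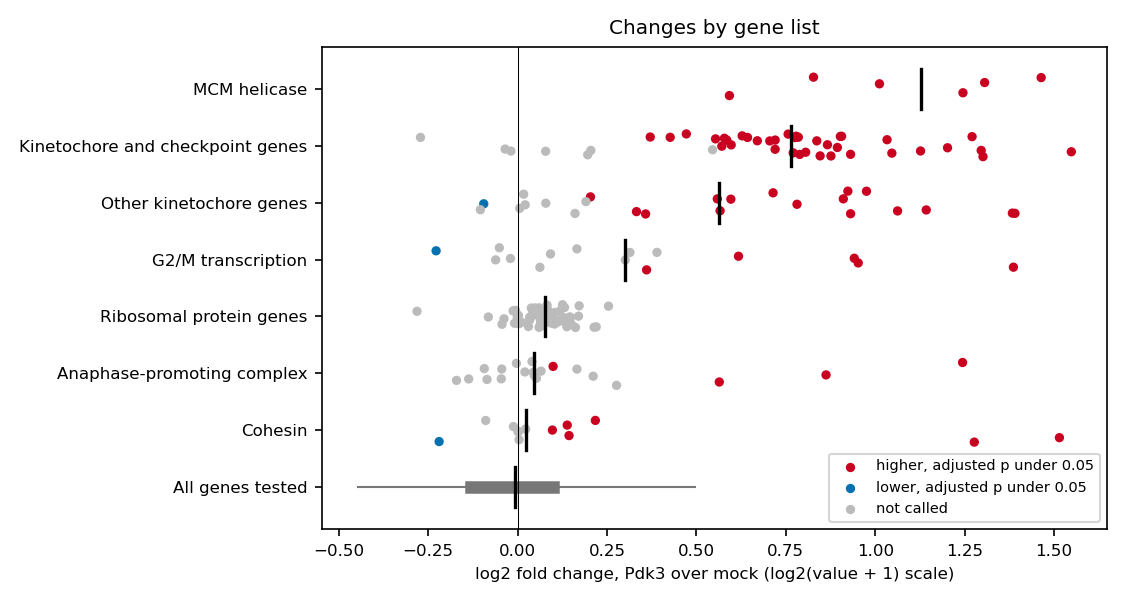
Log2 fold change of every tested gene in each list as points, with a black line at the median: the kinetochore and checkpoint genes, the other genes of the pathway, the MCM helicase genes and the ribosomal protein genes, coloured by call, with the middle range of all genes tested as a grey bar. The medians are 0.56 for the other kinetochore genes, 0.05 for the anaphase-promoting complex, 0.02 for cohesin and 1.13 for the MCM genes.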

How the data were processed

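The 4 libraries (2 mock, 2 Pdk3) were made from total RNA with a stranded mRNA kit, per the labels' protocols. The build rn6 and the tools DESeq2 1.26.0, featureCounts 1.6.5 (Subread), STAR 2.6.1d, Trimmomatic 0.39 and FastQC are listed, without settings, per the submitters' processing notes. The deposited values, a score and not raw counts, are gene-level read counts after the authors' scaling between libraries and rounding, with symbols and coordinates per the file headers. Neither the strand setting nor duplicate handling is given in the sources used here.

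With limma 3.58.1 (R 4.3.3), log2(value + 1) was fitted (intensity trend, group as the single term, 2 residual and 5.56 prior degrees of freedom), two-sided, with Benjamini-Hochberg adjustment over 12838 genes and a threshold of 0.05. Fold changes are ratios of group means of the normalised read counts, while each log2 fold change is the difference of mean log2(value + 1), which is too small for low genes. Errors of log2 fold changes are limma standard errors over n = 2 libraries per group. With 2 libraries against 2, no exact permutation test can reach the threshold. Scaling factors between 0.9246 and 1.0567 were estimated from the steps of the rounded values, and gave the approximate reads in genes. For counting error, the larger of the limma p and an exact binomial p of the summed reads was used. This covers counting error only, since the reads carry no molecular identifiers and may be copies. The fit was also run on simulated counts that varied by counting error alone. That run cannot speak for variation between cultures.

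Motifs were searched as exact letters on both strands of RefSeq windows. The members and lists were chosen with earlier results of these data known. Genes named were all members, Pdk3, and by smallest p, at most 4 called genes of each other list in its commoner direction and at most 2 in the rarer one. Outside this rule stand Zw10 and Ska2 (partners of members), the overlapping genes and the genes of the kinetochore ontology term, all named after their values were seen. Alternatives covered scaling (trimmed mean of M values, TMM; ribosomal protein genes), filter, pseudocount, trend, threshold, block and left-out libraries.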

Additional observations from a re-analysis of the deposited data

How the results depend on the processing

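Against 37 members that rose, between 34 and 38 rose with TMM scaling, with the ribosomal protein genes set level, with a minimum value of 50 (36 of 40 tested), with pseudocounts of 0.5 or 8, with counting error required, with counting error alone (36) and with a false discovery rate of 0.01. Cenpc, which is not among the 37, is counted with TMM scaling and with the minimum value of 50. Without the filter on low values 28 rose, and without the intensity trend 26; the calls ended under one or both of these were those of Nuf2, Cenpn, Cenph, Plk1, Pmf1, Mis18a, Cenpm, Cenpt, Cdc20, Cenpo, Birc5 and Oip5. With a minimum log2 fold change of 1, 8 members rose. The replicate block left 37 members risen, and changed the counts over all genes to 1374 higher and 1298 lower; the labels name no shared source behind the numbers, and deviations of same-numbered libraries correlated at 0.04 over all genes tested and 0.13 over the 44 member rows. Members lower stayed at 0 except for 1 (Zwint) with the ribosomal protein genes set level.

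Over all genes, 1496 were higher and 1449 lower. With the ribosomal protein genes set level the split was 923 higher and 3483 lower, and the median gene moved to -0.09 and the median member to 0.68. Without the filter the counts were 737 and 539, without the trend 526 and 325, at a false discovery rate of 0.01 766 and 576, and with a minimum log2 fold change of 1 157 and 51. With counting error required, 957 were lower. Leaving out any 1 library gave 0 limma calls in each direction, over all genes and among the members, with 1 residual degree of freedom and the lone library assumed to vary like the other group. On counting error alone, chosen after seeing the data, the counts over all genes were 777 higher and 642 lower without Mock 1, 843 and 750 without Mock 2, 809 and 627 without Pdk3 1, and 798 and 602 without Pdk3 2, with 34 to 35 members higher. Values below about 50 reads limit what can be resolved. Mock means lay below 50 for Cenpa, Mis18a, Oip5, Nsl1, Cenpk, Cenpu, Cenpw, Cenpo and the second Spag5 row.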

Other observations

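The authors' table also annotates genes to the ontology term for the kinetochore that are neither members nor on the list of other kinetochore genes. There were 39 of these, a set chosen after seeing the data, as were the genes named from it. Of the 37 tested, 10 rose (27%) and 3 fell (8.11%), against 11.7% and 11.3% of all tested genes. The median log2 fold change of the 37 was 0.07. Mtbp, a protein that binds Mdm2 and acts at replication origins, had 102 and 105 in mock and 218 and 210 with Pdk3 (2.07-fold, limma adjusted p = 1.05e-04), and was the 1 gene among them with a log2 fold change of at least 1. Nup85 and Nup107, nuclear pore subunits that also sit at mitotic kinetochores, had 170 and 169 against 255 and 261 (1.52-fold) and 204 and 211 against 287 and 308 (1.43-fold). Ccnb1, the cyclin B1 of the mitotic kinase, had 156 and 169 against 224 and 248 (1.45-fold). The 3 that fell were Psen2, Wdr81 and Crebbp, with log2 fold changes of -0.23, -0.27 and -0.16, and none of them is a structural subunit of the kinetochore.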
